A study of Homo sapiens with 6 samples.

Results

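The 10 genes described here encode the enzymes and core subunits that write, maintain and erase DNA methylation and that place the repressive methyl mark on lysine 27 of histone H3. They were chosen by name out of 60612 genes listed for each library. DNMT1, DNMT3A, DNMT3B and UHRF1 form the methylation group, TET1, TET2 and TET3 the demethylation group, and EZH2, SUZ12 and EED the core of Polycomb repressive complex 2 (PRC2). RNA-seq was performed on HCT116, a human colorectal carcinoma line, which had received either a negative control lentivirus (LV-NC, 3 libraries) or a lentivirus that overexpresses SNORA28 (LV-SNORA28, 3 libraries). SNORA28 is an H/ACA small nucleolar RNA, a kind that guides pseudouridylation of other RNAs. Both groups carry a lentiviral vector and were harvested at a single time after infection, and the comparison reads 1 cell line only. The question was which transcripts change when SNORA28 is raised.

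Methyl groups on cytosine are set by DNMT3A and DNMT3B on unmethylated DNA and are copied after replication by DNMT1, which UHRF1 brings to hemimethylated sites. TET1, TET2 and TET3 oxidise methylcytosine and thereby start its removal. In PRC2, EZH2 is the catalytic subunit, and it is active only when bound to SUZ12 and EED. In colorectal cancer, CpG islands of silenced genes often carry DNA methylation, and many of the same genes are PRC2 targets in stem cells.

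Expression is given as FPKM, a fragment level scaled for transcript length and for the size of the library, which can therefore be compared between genes. The labels do not state whether the 3 libraries of a group came from separate cultures, so p-values measure the spread between these libraries only, which may be technical. The number of reads behind the values is unknown. SNORA28 was at 0.92, 0 and 0.64 FPKM under LV-NC, compared with 15.01, 13.66 and 15.2 FPKM under LV-SNORA28, in the direction of the labels, in libraries selected for polyadenylated RNA. The epithelial genes EPCAM, KRT8, KRT18, KRT19 and CDH1 were expressed in every library. CEACAM5 was listed at 0 in all, and CEACAM6 at 0 in all but LV-NC replicate 3 (0.01 FPKM). The epithelial list summed to between 758 and 846 FPKM in LV-NC and between 780 and 827 FPKM in LV-SNORA28. Of 12 markers of blood, stromal and endothelial cells, 3 were at 0 in all libraries and 2 had a mean of at least 1 FPKM, and the list summed to between 4.32 and 6.64 FPKM in LV-NC and between 6.5 and 7.38 FPKM in LV-SNORA28. Transcripts of 37 mitochondrial genes took 42.7% to 47.7% of the summed FPKM in LV-NC and 35.9% to 38.3% in LV-SNORA28.

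Several of these genes are known as targets of E2F factors, which switch on genes for DNA replication, and their promoters are shown for this reason. RefSeq windows of 300 bases (250 before to 50 after a start site, GRCh38.p14) were searched on both strands for the E2F-type motifs TTTCCCGC, TTTCGCGC, TTTGCCGC and TTTGGCGC, with overlapping matches counted. All 10 genes had a window, and 4 of them, DNMT1, UHRF1, EZH2 and SUZ12, held a motif. Of 35116 windows searched, 3.31% held one, and of 8814 tested genes with a window, 6.98% held one in any of their windows. The stretches below run 5′ to 3′ on the strand of the gene, with the motif or its reverse complement in capitals and 20 bases on either side.
DNMT1, chr19:10194928-10194975, minus strand, motif beginning 2 bases before the start site: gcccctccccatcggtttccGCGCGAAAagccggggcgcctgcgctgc
UHRF1, chr19:4909467-4909514, plus strand, 14 bases before a start site: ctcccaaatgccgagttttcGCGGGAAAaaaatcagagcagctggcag
UHRF1, chr19:4909964-4910011, plus strand, 160 bases before another start site: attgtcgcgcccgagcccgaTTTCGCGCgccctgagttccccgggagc
EZH2, chr7:148884263-148884310, minus strand, 1 base after a start site: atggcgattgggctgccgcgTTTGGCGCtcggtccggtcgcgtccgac
SUZ12, chr17:31936798-31936845, plus strand, 189 bases before the start site: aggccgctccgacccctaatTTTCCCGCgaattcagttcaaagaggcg
A match is a description of the letters and was not tested for binding. The windows of these 4 genes held between 30 and 46 CpG dinucleotides, against a median of 14 over all windows searched, and genes without a motif lay both within and below that range. The windows of TET3 held 33 and 45, those of DNMT3A 18 to 46 and those of TET2 13 and 35, whereas EED held 16, TET1 6 to 11 and DNMT3B 3. The only windows of DNMT3B (chr20:32779602-32779901) and EED (chr11:86244503-86244802) lie inside genes that begin at 32762385 and 86201212 on the plus strand. The only DNMT1 window (chr19:10194904-10195203) also lies inside its gene, which begins at 10231286 on the minus strand. So do the UHRF1 windows, the first at chr19:4909251-4909550, in a gene that begins at 4903080 on the plus strand. The sequence at the listed beginning of DNMT3B, EED, DNMT1 and UHRF1 was therefore not searched, for the motif or for CpG.

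The 10 genes spanned a wide range of levels, and their order was nearly the same in both groups. In LV-NC the order of the medians was UHRF1 (20.33 FPKM), DNMT1 (19.66), EZH2 (12.85), DNMT3B (7.75), SUZ12 (6.58), TET3 (4.18), DNMT3A (2.46), EED (2.04), TET2 (1.23) and TET1 (0.37). The neighbours UHRF1 and DNMT1, DNMT3B and SUZ12, and DNMT3A and EED overlapped in their libraries, whereas all other neighbours were separate. In LV-SNORA28 the medians were 19.12 FPKM for DNMT1, 17.76 for UHRF1, 15.57 for EZH2, 8.12 for SUZ12, 7.46 for DNMT3B, 3.42 for TET3, 2.57 for DNMT3A, 2.2 for EED, 1.35 for TET2 and 0.21 for TET1. There, only SUZ12 and DNMT3B overlapped among neighbours. The maintenance pair UHRF1 and DNMT1 was thus at higher levels than both de novo enzymes, and EED was the lowest of the 3 PRC2 core subunits, in every library.

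**Figure D1:**
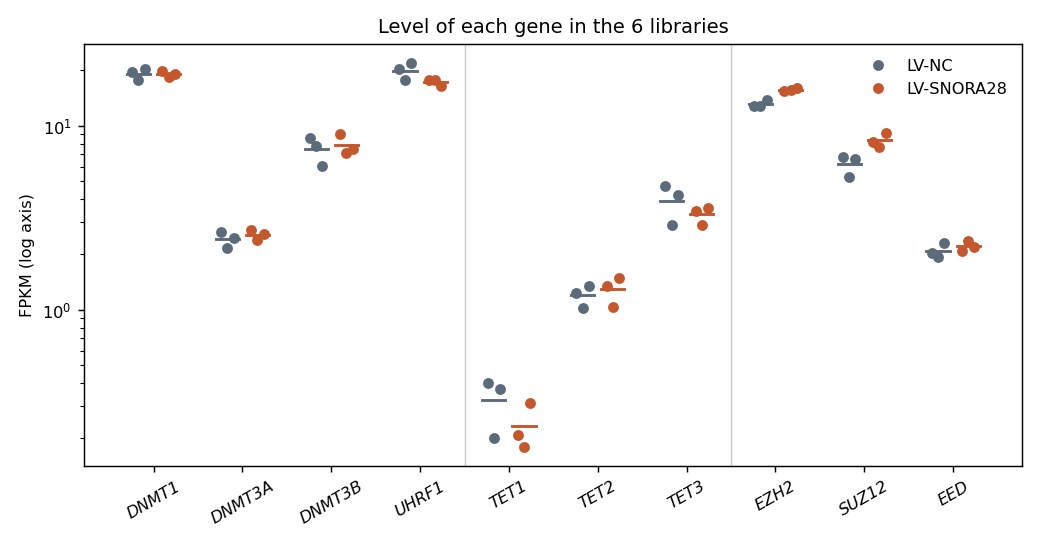
FPKM of the 10 genes (log axis) in 3 LV-NC (grey) and 3 LV-SNORA28 (orange) libraries, with a point per library and a bar at the group mean; vertical lines separate the methylation, TET and PRC2 groups. Only EZH2 and SUZ12 had all LV-SNORA28 points above all LV-NC points, and TET1 lay below 1 FPKM in every library.

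None of the 10 genes passed an adjusted p of 0.05 between LV-SNORA28 and LV-NC. The test was limma on log2(FPKM + 1), with Benjamini-Hochberg adjustment over the 12076 genes whose mean over the 6 libraries reached 1 FPKM. Fold changes are given on this scale, on which changes of weakly expressed genes appear too small. Of the 10 genes, 9 were tested and 0 were called, against 8.91% of all genes tested (6.81% were higher and 2.1% were lower). With an unadjusted p under 0.05, 2 of 9 passed, against 28% of all genes, and 0 passed the additional 1.5-fold threshold, against 3.79%. The groups did not overlap for 2 of the 10, both higher, against 35.1% of all genes tested in either direction and 27% in the higher direction. The median log2 fold change of the 9 tested genes was 0.06, against 0.09 over all genes tested. Over all genes, 822 were higher and 254 lower, a split that became 451 and 375 after quantile normalization.

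EZH2 and SUZ12 were the 2 genes whose groups did not overlap. EZH2 (chr7:148807257-148884321, minus strand) was at 12.80, 12.85 and 13.78 FPKM under LV-NC, compared with 15.37, 15.57 and 16.00 FPKM under LV-SNORA28. Each LV-SNORA28 library was above each LV-NC library, and the group means were 13.1 ± 0.552 and 15.6 ± 0.322 FPKM (SD, n = 3 each), a ratio of 1.19. The log2 fold change was 0.24 (SE 0.06, 95% interval 0.09 to 0.38, limma adjusted p = 0.0574). With the filter raised to a mean of 5 FPKM, which leaves 6241 genes tested, the adjusted p was 0.0417, and over all 13 alternatives it ranged from 0.0417 to 0.173.

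SUZ12 (chr17:31937007-32001038, plus strand), the subunit that holds the complex together, was at 6.80, 5.24 and 6.58 FPKM under LV-NC, compared with 8.12, 7.65 and 9.18 FPKM under LV-SNORA28. The lowest LV-SNORA28 library was above the highest LV-NC library, with means of 6.21 ± 0.844 and 8.32 ± 0.784 FPKM (SD, n = 3 each) and a ratio of 1.34. The log2 fold change of 0.37 (SE 0.11, 95% interval 0.11 to 0.64) had a limma adjusted p of 0.0861, which ranged from 0.0716 to 0.228 over 13 alternatives. The near-identical copy SUZ12P1 can share reads with SUZ12 and was at 1.20, 1.57 and 1.04 FPKM under LV-NC, compared with 1.51, 1.61 and 1.74 FPKM under LV-SNORA28, so the division between them is uncertain. Their sum was 8.00, 6.81 and 7.62 FPKM against 9.63, 9.26 and 10.92 FPKM, and the groups did not overlap in the sum either.

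EED (chr11:86201212-86278813, plus strand), which binds the finished histone mark, was at 2.04, 1.94 and 2.31 FPKM under LV-NC, compared with 2.08, 2.36 and 2.2 FPKM under LV-SNORA28, so that the groups overlapped. The log2 fold change was 0.05 (SE 0.08, 95% interval -0.15 to 0.25, limma adjusted p = 0.715). The ratio of EED to EZH2 within a library was 0.151 to 0.168 in LV-NC and 0.135 to 0.152 in LV-SNORA28, a difference of -0.17 on the log2 scale that did not pass (exact two-sided permutation p = 0.2, adjusted p = 0.6 over 6 ratios).

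**Figure D2:**
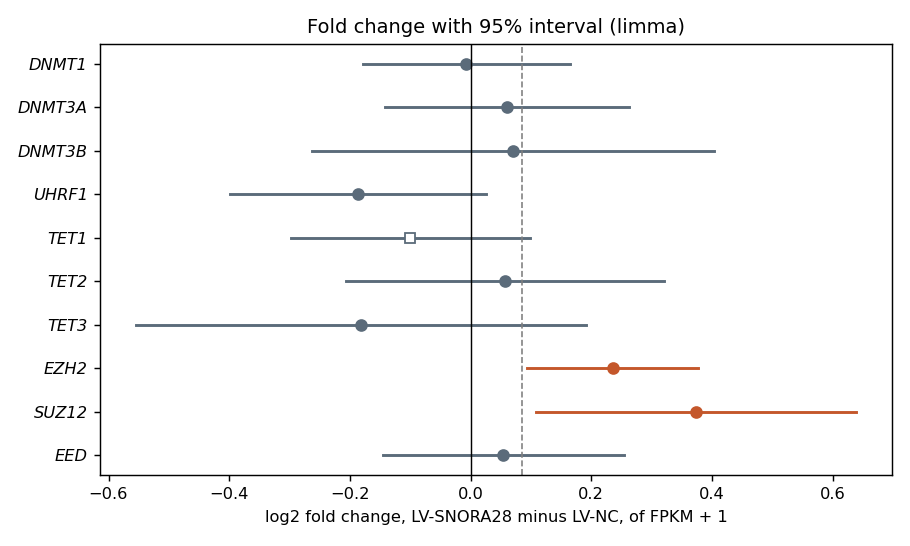
Log2 fold change of FPKM + 1 (LV-SNORA28 minus LV-NC) with its 95% interval for each gene; filled circles are tested genes, the open square is TET1 from the fit without a filter, orange marks genes whose groups did not overlap, and the dashed line is the median of all genes tested (0.09). The intervals of EZH2 (0.09 to 0.38) and SUZ12 (0.11 to 0.64) lie above 0, and all others include 0.

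The methylating enzymes differed by less than their spread. DNMT1 (chr19:10133342-10231286, minus strand) was at 19.66, 17.65 and 20.29 FPKM under LV-NC, compared with 19.76, 18.35 and 19.12 FPKM under LV-SNORA28. The means of 19.2 ± 1.38 and 19.1 ± 0.706 FPKM (SD, n = 3 each) gave a log2 fold change of -0.01 (SE 0.07, limma adjusted p = 0.961), and the 95% interval ran from -0.18 to 0.16. An overlapping gene on the same strand, S1PR2, can share reads with DNMT1. DNMT3A (chr2:25227855-25342590, minus strand) was at 2.63, 2.17 and 2.46 FPKM under LV-NC, compared with 2.72, 2.40 and 2.57 FPKM under LV-SNORA28. The groups overlapped, with a log2 fold change of 0.06 (SE 0.08, 95% interval -0.14 to 0.26, limma adjusted p = 0.686). DNMT3B (chr20:32762385-32809359, plus strand) was at 8.61, 7.75 and 6.02 FPKM under LV-NC, compared with 8.99, 7.08 and 7.46 FPKM under LV-SNORA28. Its spread within LV-NC was wider than the difference between the groups, and the log2 fold change was 0.07 (SE 0.14, 95% interval -0.26 to 0.40, limma adjusted p = 0.786). The 3 DNMT transcripts together summed to 29.1 ± 1.69 FPKM in LV-NC and 29.5 ± 1.84 FPKM in LV-SNORA28 (SD, n = 3 each).

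UHRF1 (chr19:4903080-4962154, plus strand), the reader that guides DNMT1, was at 20.33, 17.63 and 21.86 FPKM under LV-NC, compared with 17.76, 17.80 and 16.48 FPKM under LV-SNORA28. For UHRF1, LV-NC replicate 2 lay among the LV-SNORA28 libraries, so the groups overlapped, with means of 19.9 ± 2.14 and 17.3 ± 0.751 FPKM (SD, n = 3 each). The log2 fold change was -0.19 (SE 0.09, 95% interval -0.40 to 0.03, limma adjusted p = 0.229), and it was -0.12 (limma adjusted p = 0.442) without LV-NC replicate 3. Within a library, the ratio of UHRF1 to DNMT1 was 1.03, 0.999 and 1.08 in LV-NC and 0.899, 0.970 and 0.862 in LV-SNORA28. All 3 LV-SNORA28 ratios were below all LV-NC ratios, a log2 difference of -0.19, with the smallest p that 3 against 3 libraries allow (exact two-sided permutation p = 0.1, adjusted p = 0.6 over 6 ratios). A design of this size cannot pass 0.05 in that test.

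The other 4 ratios overlapped between the groups. EZH2 to its paralogue EZH1 was 2.79 to 3.58 in LV-NC and 2.92 to 2.97 in LV-SNORA28 (log2 difference -0.11, exact two-sided permutation p = 0.4), and the difference was -0.21 without LV-NC replicate 1 and -0.03 without LV-NC replicate 2. SUZ12 to EZH2 was 0.408 to 0.531 against 0.491 to 0.574 (0.18, exact two-sided permutation p = 0.3), a difference of 0.26 without LV-NC replicate 1 and 0.07 without LV-NC replicate 2. DNMT3B to DNMT3A was 2.45 to 3.57 against 2.90 to 3.31 (-0.01, exact two-sided permutation p = 1), and DNMT1 to DNMT3B was 2.28 to 3.37 against 2.2 to 2.59 (-0.09, exact two-sided permutation p = 0.8). None passed after adjustment over the 6 ratios (adjusted p 0.6 to 1).

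**Figure D3:**
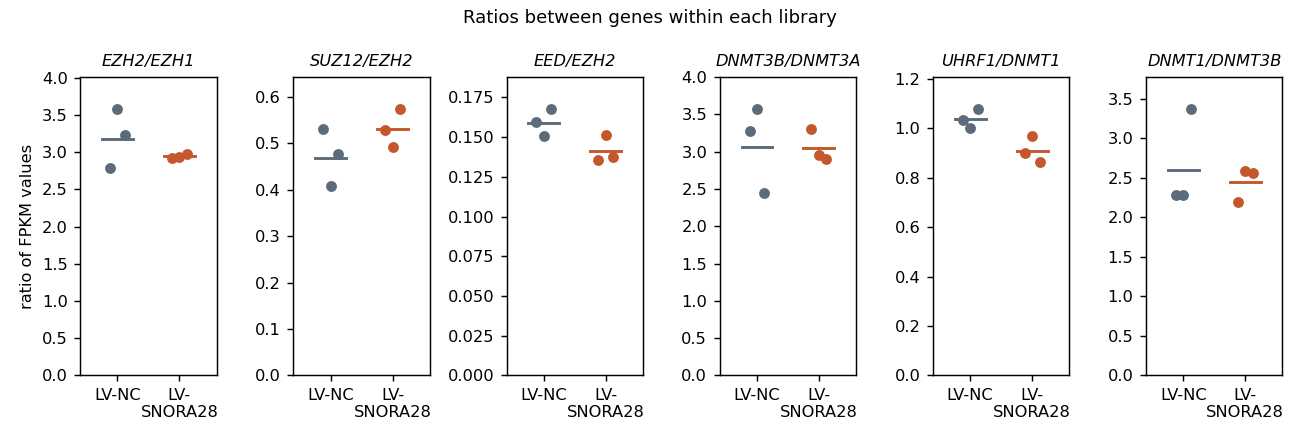
Ratio of FPKM values between pairs of genes within each library (linear axes from 0), with a point per library in 3 LV-NC (grey) and 3 LV-SNORA28 (orange) libraries and a bar at the geometric mean. Only UHRF1/DNMT1 separated the groups, with LV-NC at 0.999 to 1.08 and LV-SNORA28 at 0.862 to 0.970.

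The TET transcripts were among the lower ones and overlapped between the groups. TET3 (chr2:73984910-74108176, plus strand), the most abundant, was at 4.72, 2.87 and 4.18 FPKM under LV-NC, compared with 3.42, 2.90 and 3.56 FPKM under LV-SNORA28. LV-NC replicate 2 was the lowest of all 6 libraries, and the log2 fold change of -0.18 had a wide error (SE 0.16, 95% interval -0.55 to 0.19, limma adjusted p = 0.493). It was -0.06 without LV-NC replicate 1 (limma adjusted p = 0.812), -0.11 without LV-SNORA28 replicate 2 (0.743) and -0.35 without LV-NC replicate 2 (0.125). A long non-coding RNA gene overlaps TET3 on the same strand and can share its reads. TET2 (chr4:105145875-105279816, plus strand) was at 1.23, 1.02 and 1.34 FPKM under LV-NC, compared with 1.35, 1.04 and 1.48 FPKM under LV-SNORA28, with a log2 fold change of 0.06 (SE 0.11, 95% interval -0.21 to 0.32, limma adjusted p = 0.776). TET1 (chr10:68560337-68694487, plus strand) was at 0.40, 0.20 and 0.37 FPKM under LV-NC, compared with 0.21, 0.18 and 0.31 FPKM under LV-SNORA28, under the filter. In the fit without a filter its log2 fold change was -0.10 (SE 0.08, limma adjusted p = 0.657). Summed over the 3 genes, TET transcripts were 5.44 ± 1.19 FPKM in LV-NC and 4.82 ± 0.631 FPKM in LV-SNORA28 (SD, n = 3 each).

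Replicate 2 was low in both groups for these genes. LV-NC replicate 2 was the lowest LV-NC library for 8 of the 10 genes, against 43.5% of all genes tested, and LV-SNORA28 replicate 2 was the lowest of its group for 7 of the 10, against 35.7%. LV-NC replicate 2 also had the highest mitochondrial share (47.7%), and the part of that share in these values was not tested. Without it, the log2 fold changes were 0.22 for EZH2 (limma adjusted p = 0.132), 0.27 for SUZ12 (0.155) and -0.27 for UHRF1 (0.108). With each library scaled to its summed nuclear FPKM, they were 0.21 for EZH2 (limma adjusted p = 0.0867), 0.35 for SUZ12 (0.127) and -0.21 for UHRF1 (0.202).

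SUZ12 had the widest range over the 6 libraries, 0.71 on the log2(FPKM + 1) scale. The 5 tested genes whose centred values lay closest to it were SOCS4, KLHDC10, BTAF1, RLIM and SPTLC2, with root mean square differences of 0.0298 to 0.0336 over 6 libraries. SOCS4 was at 5.07, 3.91 and 4.92 FPKM under LV-NC, compared with 5.91, 5.61 and 6.54 FPKM under LV-SNORA28. These genes were picked for their likeness to SUZ12 in the same 6 libraries, so the shared pattern follows from the choice.

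PRC2 acts with partner proteins, some of which steer it to chromatin, and these were listed with EZH1, RBBP4, RBBP7 and EZHIP. Of the 11 genes listed, 10 were tested and 0 were called. All 10 had a log2 fold change above 0, against 66.7% of all genes tested. Of the 10, 6 passed an unadjusted p of 0.05, against 28%. Their median was 0.21, against 0.09 over all genes. After quantile normalization 8 of the 10 were above 0, against 49.7% of all genes, with a median of 0.13. AEBP2, a DNA-binding partner, was at 3.30, 2.49 and 3.49 FPKM under LV-NC, compared with 4.54, 4.55 and 4.59 FPKM under LV-SNORA28, without overlap (log2 fold change 0.45, SE 0.11, limma adjusted p = 0.0506). JARID2, its companion in the same form of PRC2, was at 6.76, 5.88 and 6.04 FPKM against 7.47, 7.50 and 7.92 FPKM (0.26, SE 0.07, limma adjusted p = 0.0762). EZH1 was at 4.59, 3.59 and 4.27 FPKM against 5.27, 5.30 and 5.38 FPKM (0.30, SE 0.09, limma adjusted p = 0.0863). Together, the 2 catalytic paralogues summed to 17.3 ± 0.809 FPKM in LV-NC and 21.0 ± 0.379 FPKM in LV-SNORA28 (SD, n = 3 each). PHF19, a partner that binds methylated H3K36, was at 7.21, 6.99 and 7.78 FPKM against 7.55, 7.56 and 6.99 FPKM, and EZHIP was listed at 0 throughout.

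H3K27 demethylases, which remove the PRC2 mark, and genes of the BAP1 complex were listed apart. None of the 5 tested H3K27 demethylase and BAP1 complex genes was called, and none passed an unadjusted p of 0.05, with a median of -0.02. KDM6A, an H3K27 demethylase, was at 1.41, 1.08 and 1.32 FPKM under LV-NC, compared with 1.27, 1.29 and 1.38 FPKM under LV-SNORA28. It was the only 1 of the 5 with a log2 fold change above 0, against 66.7% of all genes tested. ASXL2 had the lowest (-0.61, SE 0.43, limma adjusted p = 0.408), at 4.65, 0.77 and 3.16 FPKM against 1.98, 0.77 and 1.23 FPKM. In PRC1, which reads the PRC2 mark, 1 of 18 tested genes rose (5.56%, near the 6.81% of all genes tested) and 0 fell, with a median of 0.08. It was CBX6, a chromodomain subunit, at 14.53, 12.64 and 13.70 FPKM under LV-NC, compared with 20.71, 19.70 and 20.49 FPKM under LV-SNORA28 (log2 fold change 0.54, SE 0.07, limma adjusted p = 0.00994), and it was called under all 13 alternatives.

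Among the 11 tested cofactors of DNA methylation, 1 rose (9.09%, near the 6.81% of all genes tested) and 0 fell. CDCA7L, a paralogue of the HELLS partner CDCA7, was at 15.58, 11.35 and 15.48 FPKM under LV-NC, compared with 20.28, 23.79 and 24.88 FPKM under LV-SNORA28 (log2 fold change 0.67, SE 0.14, limma adjusted p = 0.0356), a call that held under 4 of 13 alternatives. HELLS, a remodeller needed for methylation of heterochromatin, was at 2.02, 1.74 and 2.02 FPKM against 2.68, 2.47 and 3.13 FPKM, without overlap (0.36, SE 0.10, limma adjusted p = 0.0657). TRIM28, a corepressor that recruits silencing enzymes, lay the other way without overlap, at 100.06, 110.90 and 118.24 FPKM against 98.38, 91.64 and 96.95 FPKM (-0.19, SE 0.08, limma adjusted p = 0.158). None of the 8 methyl-CpG readers was called, and MBD4, a reader that is also a DNA glycosylase, had the highest value (0.31, SE 0.09, limma adjusted p = 0.0785). The groups did not overlap for 2 readers that were higher and 1 that was lower, against 35.1% of all genes tested in either direction. The lower one was MBD3 (-0.17, SE 0.07, limma adjusted p = 0.178).

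Of 12 tested genes of active demethylation, 1 rose (8.33%, near the 6.81% of all genes tested) and 0 fell. GADD45A, a stress gene that has been linked to demethylation by repair, was at 24.68, 28.02 and 28.19 FPKM under LV-NC, compared with 34.58, 32.40 and 33.94 FPKM under LV-SNORA28 (log2 fold change 0.31, limma adjusted p = 0.0465), and this call held under 2 of 13 alternatives. Of the 11 genes that supply S-adenosylmethionine, the methyl donor of both systems, 2 rose (18.2%, against 6.81% of all genes) and 0 fell, and the median was 0.14. All 11 had a log2 fold change above 0, against 66.7% of all genes, and 7 of 11 after quantile normalization, against 49.7%. SHMT1, a folate-cycle enzyme, was at 3.65, 4.17 and 4.58 FPKM against 6.34, 6.72 and 6.87 FPKM (0.58, SE 0.09, limma adjusted p = 0.0154). MAT2B, the regulatory subunit of the synthetase, was at 9.72, 10.50 and 10.51 FPKM against 12.46, 13.73 and 13.01 FPKM (0.32, SE 0.07, limma adjusted p = 0.0356), held under 4 of 13 alternatives. The catalytic subunit MAT2A, at 76.33, 68.57 and 65.33 FPKM against 94.19, 87.41 and 84.02 FPKM, did not pass (0.33, SE 0.08, limma adjusted p = 0.0501). Over all 7 lists beside the 10 genes, 5 of 75 tested genes rose (6.67%, near the 6.81% of all genes tested) and 0 fell, and the median of 0.09 equalled that of all genes. Leaving out any 1 library left between 1 and 3 calls, with 1 when LV-SNORA28 replicate 2 or 3 was left out, where SHMT1 had a limma adjusted p of 0.0654 and 0.0653.

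**Figure D4:**
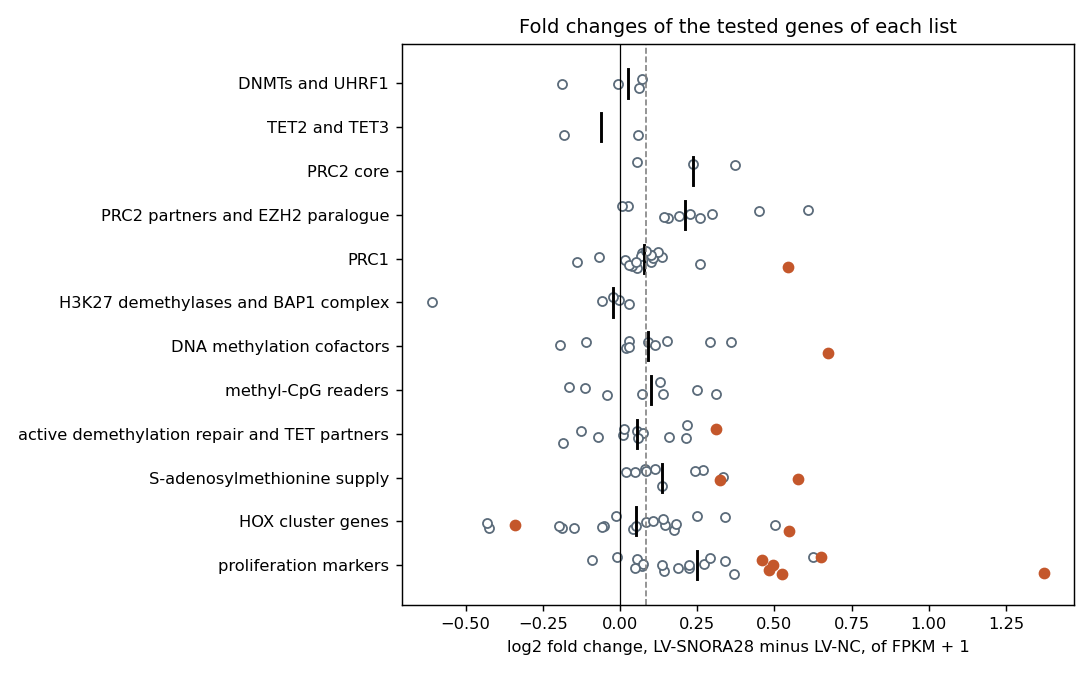
Log2 fold change of FPKM + 1 (LV-SNORA28 minus LV-NC) of each tested gene, by list; filled orange points passed an adjusted p of 0.05, short black bars are list medians, and the dashed line is the median of all genes tested (0.09). Medians of the PRC2 core (0.24), PRC2 partners (0.21), S-adenosylmethionine genes (0.14) and proliferation markers (0.25) lie to the right of the dashed line. Each of these lists also has genes to the left of the line. The medians of the DNA methylation cofactors (0.0918) and the methyl-CpG readers (0.101) lie just to its right. No gene of the top 4 lists passed.

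DNMT1, UHRF1, EZH2, HELLS and CDCA7L are transcribed with the cell cycle, and some proliferation markers were higher in LV-SNORA28. Of 22 tested markers, 6 rose (27.3%, against 6.81% of all genes tested) and 0 fell, with a median of 0.25, and their levels summed to between 654 and 818 FPKM in LV-NC and between 816 and 896 FPKM in LV-SNORA28. MCM6, a subunit of the replicative helicase, was at 10.44, 11.43 and 13.88 FPKM under LV-NC, compared with 30.25, 32.35 and 34.26 FPKM under LV-SNORA28 (log2 fold change 1.37, limma adjusted p 0.00189 to 0.0231 over 13 alternatives). The other listed helicase subunits did not pass, with log2 fold changes of -0.09 for MCM2, 0.05 for MCM3, -0.01 for MCM5 and 0.19 for MCM7 (limma adjusted p 0.323 to 0.964). The subunit MCM4 was not among the listed markers. TOP2A, the mitotic topoisomerase, had a log2 fold change of 0.65, and CCNB1, CDK1, AURKA and BUB1, which act in mitosis, had 0.52, 0.50, 0.48 and 0.46. MKI67 did not pass (0.07, limma adjusted p = 0.901), with 56.47, 24.52 and 45.17 FPKM in LV-NC. The part of proliferation in the EZH2, SUZ12, HELLS and CDCA7L values was not tested. Leaving out 1 library left 2 to 6 of these calls, with 2 when LV-SNORA28 replicate 2 or 3 was left out and 3 when LV-NC replicate 1 or 2 was.

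The levels of genes that these systems commonly silence were read as a last group. Of 20 germline genes silenced by methylation in somatic cells, 2 were tested, 0 were called and 8 were at 0 in every library. MAGEB2 was at 82.90, 90.61 and 84.26 FPKM under LV-NC, compared with 94.84, 100.35 and 102.42 FPKM under LV-SNORA28 (log2 fold change 0.21, limma adjusted p = 0.0903), and MAGEA3, which has near-identical copies, was at 18.42, 20.65 and 21.89 FPKM against 21.54, 21.06 and 23.26 FPKM. Of 39 HOX genes, classical PRC2 targets, 21 were tested, 1 rose and 1 fell (9.52% called, near the 8.91% of all genes tested), with a median of 0.05. HOXC10 rose from 0.99, 1.06 and 1.06 FPKM in LV-NC to 2.04, 1.91 and 1.97 FPKM in LV-SNORA28 (0.55, SE 0.07, limma adjusted p = 0.0114), with an adjusted p of 0.0543 when LV-SNORA28 replicate 3 was left out. HOXB4 fell from 11.09, 12.18 and 11.34 FPKM to 9.46, 8.59 and 8.64 FPKM (-0.34, SE 0.07, limma adjusted p = 0.0342), and this call was lost whichever library was left out. Among the tested HOX genes, 4 were higher and 4 lower without overlap, against 35.1% of all genes tested in either direction. HOXB8, at 17.75, 22.29 and 17.49 FPKM against 13.11, 14.38 and 14.23 FPKM, was lower without overlap and did not pass (-0.43, SE 0.10, limma adjusted p = 0.0522). HOXB13 was higher without overlap and did not pass either (0.25, SE 0.07, limma adjusted p = 0.0696).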

How the data were processed

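Poly(A)-selected, dUTP-stranded RNA of LV-NC and LV-SNORA28 cultures of HCT116 (3 libraries each) was sequenced by the authors. Per the labels, cutadapt 1.9, HISAT2 2.2.1, StringTie 2.1.6, DESeq2, edgeR and hg38 are named in the submitters' processing notes. The deposited values, made by the authors, are FPKM per Ensembl gene and library, with at most 2 decimals. Read counts could not be recovered from them, so depth and counting error are unknown. At the best of many trial depths, only 35.7% to 41.0% of low values in single-exon genes lay within 0.1 of a whole multiple. At 1 set depth, 20% would do so by chance, and the chance share at a best depth was not computed. No pair of libraries was identical.

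Symbols and positions were taken from GENCODE 44 (60401 of 60612 genes matched). Genes whose mean reached 1 FPKM were tested with limma 3.58.1 (mean-variance trend, R 4.3.3) on log2(FPKM + 1) over all 6 libraries, with Benjamini-Hochberg adjustment. The scripts were checked on simulated data. Log2 ratios of raw FPKM values were compared by exact permutation, with Benjamini-Hochberg adjustment over the 6 ratios (scipy 1.17.1). All 10 genes were named, along with, in each list, up to 6 genes past the threshold, the 5 genes most like the widest-ranging one, and SNORA28. Other genes named in the text were chosen after their values were seen. The genes and lists were chosen with earlier results of these data known. The alternatives were no filter, a mean of 5 FPKM, pseudocounts of 0.1 (1 for ratios), quantile normalization, scaling to nuclear FPKM, no trend, a replicate block and leaving out each library.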

Additional observations from a re-analysis of the deposited data

How the results depend on the processing

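None of the 10 genes was called under any of the 13 alternatives it was fitted in, except EZH2 at a mean of at least 5 FPKM. There, fewer genes were tested, and EZH2 had a limma adjusted p of 0.0417. TET1 was fitted only without a filter, and DNMT3A, TET2, TET3 and EED under 12 of the 13 alternatives. Of 113 alternative values of the 9 tested genes, 12 had another direction or another side of the threshold. After quantile normalization, which took the median of all genes from 0.09 to -0.00127, the log2 fold changes of DNMT3A (-0.0282), DNMT3B (-0.0213), TET2 (-0.0207) and EED (-0.0341) turned negative. Leaving out 1 library, DNMT1 ranged from -0.0636 to 0.0319, DNMT3B from -0.0584 to 0.168, TET2 from -0.00202 to 0.14, DNMT3A from 0.00688 to 0.10, EED from 0.0177 to 0.10, TET3 from -0.35 to -0.06 and UHRF1 from -0.27 to -0.12. The log2 difference of DNMT3B/DNMT3A was 0.00956 with a pseudocount of 1 and -0.17 to 0.11 leaving out 1 library, and that of DNMT1/DNMT3B was -0.18 to 0.10 (0.10 without LV-NC replicate 3), that of SUZ12/EZH2 0.07 to 0.26 and that of EZH2/EZH1 -0.21 to -0.03. The 5 calls in the 7 other lists became 2 without a filter, 2 after quantile normalization, 3 with a replicate block and 1 to 3 leaving out 1 library. The 2 HOX calls became 1 without a filter, 1 with a replicate block and 0 to 1 leaving out 1 library (0 without LV-SNORA28 replicate 3), and the 6 proliferation calls 3 without a filter and 2 to 6 leaving out 1 library. The cause was not tested. The number of genes called was 1076, and it became 397 without a filter, 510 with the replicate block and 279 to 628 leaving out 1 library. Deviations of same-numbered libraries correlated at -0.04, 0.09 and 0.00983 over all genes tested. The labels do not say whether the numbers pair the libraries, and these correlations cannot decide it. The depth behind the values is unknown, and with 3 libraries a group, p-values rest on a small number of values.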
